A study of Aspergillus fumigatus with 4 samples.

Results

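The transcriptome of *Aspergillus fumigatus* Z5 on rice straw was set against the transcriptome of the same strain on xylan, with 1 library for each carbon source, so that 2 of the 4 samples of the series enter the comparison. Strain Z5 is a thermotolerant, biomass-degrading isolate of a mould that lives in compost. In both cultures, mycelia were grown at 45 °C on sucrose, for 20 h by the labels, washed with water and moved for 16 h to a medium without yeast extract that held rice straw or oat spelt xylan as the only carbon source. The straw had been washed until no reducing sugar was detected, dried and ground. Levels on cellulose (Avicel), from a culture moved in the same way, are given beside some genes for orientation. Where none is given, the gene may be high on cellulose too. The comparison asks how a whole plant wall differs, as a carbon source, from 1 purified wall polymer. The xylan came from oat and the wall from rice, so the plant differed as well. The paper reports that the xylan broth had turned clear by harvest, whereas unused substrate remained with rice straw. The substrate left at harvest thus differed together with the carbon source. Its share in the differences below was not tested. Each side is 1 culture of 1 strain with no replicate, so the values below describe these 2 libraries and no test of the carbon sources could be run. The table lists 9540 genes, all of which were members of the comparison, and 6743 of them reached 10 RPM (reads scaled to a library of 1000000, not divided by gene length) in either library.

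Rice straw is a composite wall of cellulose, arabinoxylan, some pectin and lignin, whereas xylan is a backbone of xylose units with short side chains. Moulds open such walls with secreted enzymes. Cellobiohydrolases and endoglucanases cut cellulose chains, AA9 enzymes (lytic polysaccharide monooxygenases, annotated here as endoglucanases) cut them by oxidation, β-glucosidases release glucose, and xylanases, xylosidases and side-chain esterases and arabinofuranosidases take hemicellulose apart. In aspergilli the activator XlnR turns on many of these genes, and the repressor CreA holds them down when easily used sugars are present.

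The rice straw library held 7553138 reads and the xylan library 6820702, spread over 9275 and 9274 genes, and 1 read equalled 0.132 RPM on rice straw and 0.147 RPM on xylan. A gene was called when its ratio of RPM reached 4-fold and it had at least 10 RPM in either library. By this rule 429 genes (6.36% of 6743) were higher and 440 genes (6.53%) lower on rice straw, 12.9% in all. Of the 2261 genes with a description and at least 10 RPM, 17.1% were higher and 11.4% lower, and lists drawn from descriptions are set against these shares. The higher genes took 18.7% of the reads on rice straw and 2.03% on xylan, and the lower genes 2.44% on rice straw and 22.003% on xylan. The ratio was at least 16-fold for 100 of the higher and 95 of the lower genes, and at least 100-fold for 21 and 25 of them, while 64.1% of the 6743 genes stayed within 2-fold. The 6743 genes had a median log2 ratio of -0.10, and other ways of scaling the libraries shifted every log2 ratio up by 0.09 to 0.12. The 2 genes that the study used as qPCR references, Y699_04988 (actin) and Y699_07225 (histone), had ratios of 0.895 and 0.785 of rice straw over xylan. Intervals after a fold or a share are exact 95% intervals that cover counting error only, since PCR reads without molecular identifiers are not independent molecules. RPM is a share of the library, and in pooled mycelium fewer cells with a transcript and less of it per cell cannot be told apart.

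**Figure D1:**
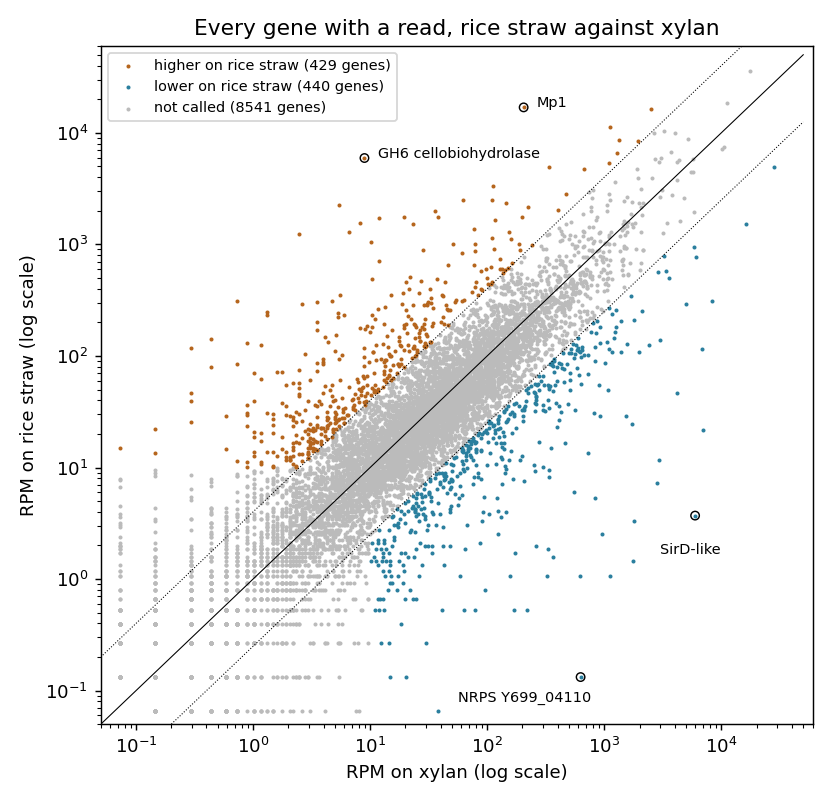
Level of every gene with a read, RPM on rice straw (vertical, log scale) against RPM on xylan (horizontal, log scale); a library with 0 reads is drawn at the value of 0.5 reads, the solid line marks equal levels and the dotted lines 4-fold. The 429 higher genes (brown) and the 440 lower genes (blue) flank the 8541 genes not called (grey), and the GH6 cellobiohydrolase lies far above the line with 5938 RPM on rice straw and 8.94 RPM on xylan.

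Cellulose-cutting enzymes were far more abundant on rice straw. All 3 cellobiohydrolases, which release cellobiose from chain ends, were called higher on rice straw, beside 6.36% of all genes with at least 10 RPM. The GH6 gene Y699_07898 had 44847 reads (5938 RPM) on rice straw, against 61 reads (8.94 RPM) on xylan, and was 664-fold higher (95% interval 517 to 868). Among the 9540 genes it had the interval bound farthest above 1. It was also high on cellulose, with 0.540% of all reads there and 0.594% on rice straw. The GH7 gene Y699_04296 had 9418 reads (1247 RPM) on rice straw, against 17 reads (2.49 RPM) on xylan, or 500.3-fold (312 to 859) higher, and 7749 RPM on cellulose. The GH7 gene celD (Y699_03865) was only 9.66-fold higher, with 214 RPM on rice straw and 22.1 RPM on xylan. Both cellobiohydrolases with a cellulose-binding module (Y699_07898 and Y699_04296) thus had under 10 RPM on xylan, whereas celD, which has none in the annotation, kept 151 reads there. Together the 3 genes took 0.7398% of all reads on rice straw (exact binomial 95% interval 0.734 to 0.746) and 0.00336% on xylan (0.00294 to 0.00382).

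Of 9 AA9 genes, 6 were called higher and none lower, and 2 stayed under 10 RPM in both libraries. The 6 were 85.7% of the 7 with at least 10 RPM, beside 6.36% higher and 6.53% lower among all genes. The median log2 ratio was 4.29 over all 9 genes and 5.52 over the 7 with at least 10 RPM. Y699_03689 had 1879 reads (249 RPM) on rice straw, against 9 reads (1.32 RPM) on xylan, and was 189-fold higher (95% interval 99.1 to 413); on cellulose it reached only 3.14 RPM. Y699_05110 (1979 RPM on rice straw and 35.8 RPM on xylan) and Y699_02418 (1765 RPM on rice straw and 38.3 RPM on xylan) were 55.3-fold and 46.1-fold higher, and on cellulose they had 42.04 and 3.85 RPM. Y699_06174 showed another order, with 1749 RPM on rice straw, 199 RPM on xylan (8.803-fold between them) and 3972 RPM on cellulose. Y699_02044 and Y699_05430 were 56.9-fold and 19.6-fold higher. The exception was Y699_02424, which was high in both libraries, with 5045 reads on rice straw and 5763 on xylan, a ratio of 0.791 (0.761 to 0.821). On xylan this 1 gene supplied 71.7% of all AA9 reads, while on rice straw Y699_05110 supplied 25.95%.

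The other endoglucanases fell into a large and a small response. Of 15 genes, 7 were called higher, 1 was lower and 4 were under 10 RPM in both libraries. The called genes were 63.6% and 9.09% of the 11 with at least 10 RPM, beside 6.36% and 6.53% of all genes. Y699_05825 had 1077 reads on rice straw and 3 on xylan, a ratio of 324-fold (111 to 1574). The GH45 gene Y699_08692 had 9806 reads (1298.3 RPM) on rice straw, against 45 reads (6.598 RPM) on xylan, or 197-fold (147 to 270.0) higher, and the GH7 gene Y699_07518 had 12883 reads on rice straw and 82 on xylan, or 142-fold (114 to 179) higher. The paper lists a cellulose-binding module for Y699_08692 and Y699_07518, and also for the GH5 genes Y699_04295 and Y699_02871, of which the last was lower. The GH5 genes Y699_05311, Y699_00150 and Y699_04295 were 114-fold, 58.4-fold and 17.8-fold higher, and the GH12 gene Y699_08637 was 31.9-fold higher. In the opposite direction the GH5 gene Y699_02871 had 504 reads (66.7 RPM) on rice straw, against 2052 reads (301 RPM) on xylan, and was 4.51-fold lower (95% interval 4.09 to 4.98). The GH5 gene Y699_08586 and the GH12 gene Y699_02067 also had less on rice straw, 137 RPM on rice straw and 469 RPM on xylan for the first and 127 RPM on rice straw and 447 RPM on xylan for the second, without reaching 4-fold. Per kilobase of coding length, Y699_07898 led all 51 cellulase genes on rice straw with 4303 RPM, followed by the AA9 genes Y699_06174 with 2322 and Y699_02418 with 2021, whereas on xylan the cell wall glucanase Crf1 (Y699_09027), an enzyme of the fungus's own wall, led with 1789, against 749 on rice straw, and Y699_02424 came next with 594.

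Cellobiose, the product of the cellobiohydrolases, is split by β-glucosidases or oxidized by cellobiose dehydrogenase, which can hand electrons to AA9 enzymes. Of 16 β-glucosidases, 7 were higher, none lower, and 4 were under 10 RPM in both libraries. The 7 were 58.3% of the 12 with at least 10 RPM, beside 6.36% higher and 6.53% lower among all genes. The GH1 gene Y699_09150 was 65.3-fold higher (95% interval 55.8 to 76.8), with 1521 RPM on rice straw and 23.3 RPM on xylan. The GH3 genes Y699_00572, Y699_00561 and Y699_08636 were 17.2-fold, 12.7-fold and 10.3-fold higher. The group took 0.457% of all reads on rice straw (0.452 to 0.462) and 0.0389% on xylan (0.0374 to 0.0404). Of 3 cellobiose dehydrogenases, Y699_02120 had 7937 reads (1051 RPM) on rice straw, against 70 reads (10.3 RPM) on xylan, 102-fold (80.9 to 131) higher, and Y699_04685 was 19.3-fold higher with 369 RPM on rice straw and 19.1 RPM on xylan. The third, Y699_05507, had 122 RPM on rice straw and 107 RPM on xylan, a ratio of 1.14 (1.03 to 1.26), and on xylan it held 78.5% of the reads of the group.

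Xylanase transcripts, too, were more abundant on rice straw than on xylan itself, in cultures that also differed in the substrate left at harvest. The paper concludes that xylose set free from xylan held down many xylanases, which was not tested here. The endo-xylanases, which cut the xylan backbone, took 0.538% of all reads on rice straw (0.533 to 0.543) and 0.0355% on xylan (0.0341 to 0.03697), 15.1-fold more on rice straw (95% interval 14.5 to 15.8). All 6 endo-xylanase genes with reads had a ratio above 1, and 3 of the 7 genes listed were called higher. The 3 were 50% of the 6 with at least 10 RPM, beside 6.36% of all genes. The GH10 gene Y699_04481 had 18895 reads (2502 RPM) on rice straw, against 427 reads (62.6 RPM) on xylan, and was 39.96-fold higher (95% interval 36.3 to 44.1). The GH11 gene Y699_07611 had 17821 reads on rice straw and 994 on xylan, or 16.2-fold (15.2 to 17.3) higher, and the GH10 gene Y699_06333 had 1462 on rice straw and 137 on xylan, or 9.64-fold (8.08 to 11.6) higher. Smaller ratios were found for Y699_09486 (189 RPM on rice straw and 50.9 RPM on xylan), Y699_04351 (23.7 RPM on rice straw and 8.65 RPM on xylan) and Y699_07623 (110.3 RPM on rice straw and 67.3 RPM on xylan), of which the first reached 4-fold when the most abundant 1% of genes was left out of the totals. Per kilobase of coding length, Y699_07611 led the 43 hemicellulase genes on rice straw with 3434 RPM and had 212 RPM on xylan, where the xylosidase Y699_05610 stood level with it at 216.

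Xylosidases, which release xylose from the ends of xylan fragments, differed less. Of 8 genes 1 was called, the GH43 gene Y699_04662, with 2682 reads (355 RPM) on rice straw, against 38 reads (5.57 RPM) on xylan, or 63.7-fold (46.3 to 90.3) higher. That share, 14.3% of the 7 with at least 10 RPM beside 6.36% of all genes, rests on 1 gene. Y699_05610 had 1736 reads on rice straw and 1450 on xylan, a ratio of 1.08 (1.01 to 1.16), and Y699_04570 had 392 on rice straw and 329 on xylan, a ratio of 1.08 (0.927 to 1.25). The GH3 β-xylosidase Y699_07880 had a ratio of 3.76 and was 4.03-fold higher with DESeq2 size factors. On xylan Y699_05610 held 70.2% of the xylosidase reads, and on rice straw Y699_04662 held 49.8%.

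Among 11 enzymes that remove side chains, 5 were higher on rice straw and none lower. The arabinofuranosidase C gene Y699_04661 (GH62), which clips arabinose, had 13390 reads (1773 RPM) on rice straw, against 133 reads (19.5 RPM) on xylan, and was 90.9-fold higher (95% interval 76.6 to 109). The acetyl xylan esterase Y699_05457 (CE1) had 2297 reads on rice straw and 24 on xylan, or 86.4-fold (57.9 to 135) higher. The feruloyl esterase gene Y699_02419, whose product frees ferulic acid from arabinoxylan, had 1116 reads (148 RPM) on rice straw, against 28 reads (4.11 RPM) on xylan, or 35.99-fold (24.8 to 54.4) higher, and only 1.14 RPM on cellulose. The α-fucosidase Y699_00087 was 21.5-fold and the second GH62 gene, Y699_02594, 9.34-fold higher. The acetyl xylan esterase Y699_07619 of family CE5 had the reverse order, 18.3 RPM on rice straw and 57.3 RPM on xylan, without reaching 4-fold. The α-glucuronidase Y699_05297, which removes glucuronic acid from xylan, had 55.2 RPM on rice straw and 36.7 RPM on xylan. Of 6 mannan and galactan enzymes 2 were higher, and of 5 arabinanases 1. Across all 43 hemicellulase genes 15 were higher and 0 lower, and of the 51 cellulase genes 23 were higher and 1 lower. Of the 529 genes of the carbohydrate-active enzyme annotation 84 were higher and 22 lower. These were 24.7% and 6.47% of the 340 with at least 10 RPM, beside 6.36% and 6.53% of all genes.

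**Figure D2:**
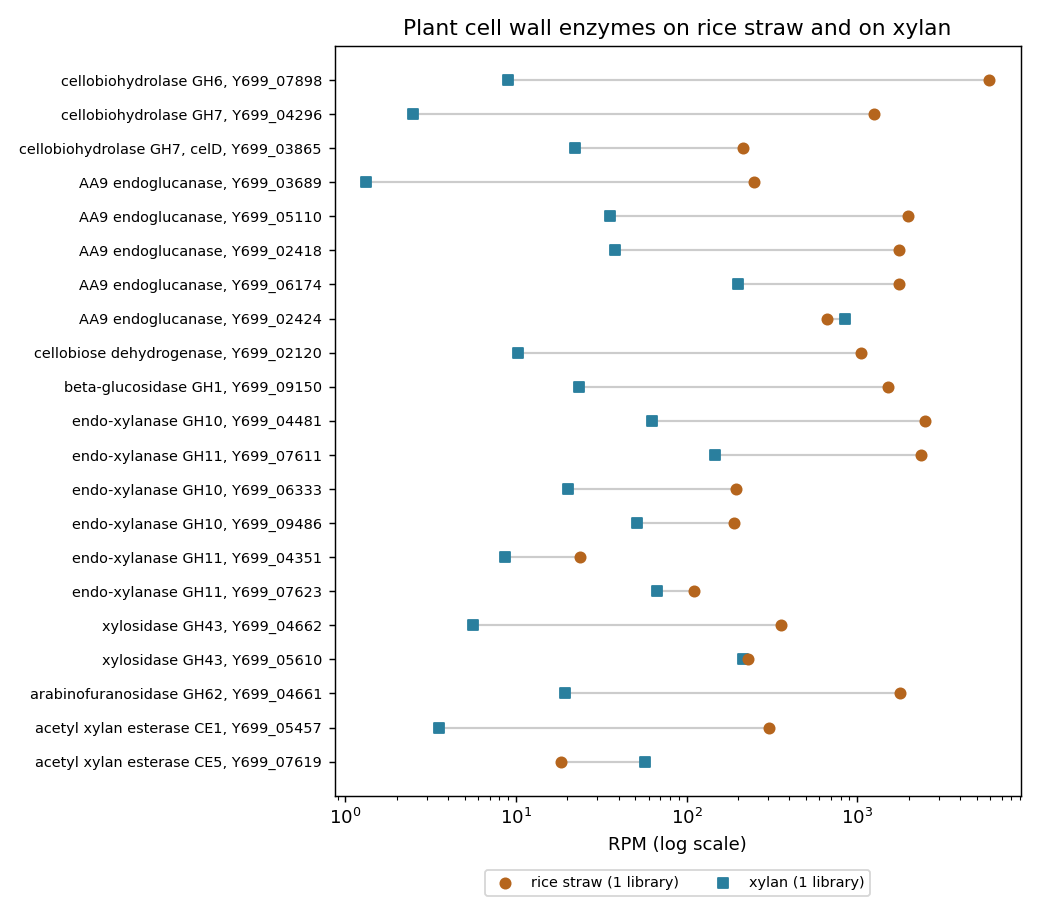
RPM (horizontal, log scale) of 21 enzyme genes on rice straw (brown circles) and on xylan (blue squares), 1 library each, with no error bars since there are no replicates. The pairs lie far apart for cellobiohydrolases and most AA9 genes, and close together for the AA9 gene Y699_02424 (668 RPM on rice straw and 845 RPM on xylan) and the xylosidase Y699_05610 (229.8 RPM on rice straw and 213 RPM on xylan).

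The CBM1 module is a small domain that binds cellulose. Of 26 genes with it, 15 were higher, 1 was lower and 5 were under 10 RPM in both libraries. They included a cellulose-binding lipase, Y699_04625, with 112 reads on rice straw and 0 on xylan, at least 33.7-fold higher against a floor of 3 reads in the xylan library. A further protein described by its cellulose-binding domain, Y699_07375, had 2347 reads on rice straw and 5 on xylan, or 424-fold (181 to 1307) higher. Glycosyltransferases, which build polysaccharides, had 3 genes higher and 7 lower of 98, 3.896% and 9.09% of the 77 with at least 10 RPM, beside 6.36% and 6.53% of all genes.

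Pectin, a minor part of grass walls, was covered by 33 genes, of which 9 were higher and 1 lower, and 16 were under 10 RPM in both libraries. The called genes were 52.9% and 5.88% of the 17 with at least 10 RPM, beside 6.36% and 6.53% of all genes. All 10 pectin and pectate lyases had a ratio above 1, and 5 were called. The pectate lyase Y699_04646 had 4374 reads (579 RPM) on rice straw, against 600 reads (87.97 RPM) on xylan, or 6.58-fold (6.04 to 7.18) higher, and it held 72.1% of the lyase reads on rice straw and 72.6% on xylan. The pectin lyase Y699_00872 was 13.3-fold and the pectate lyase Y699_05498 38.3-fold higher. Of 15 polygalacturonases and rhamnogalacturonases, 4 were higher, with 10 under 10 RPM in both libraries. The exopolygalacturonase X gene (Y699_07404) had 231 reads on rice straw and 6 on xylan, 34.8-fold higher, and the endo-polygalacturonase Y699_05780 had 433 on rice straw and 17 on xylan, 23.00-fold higher. The pectin methylesterase with most reads, Y699_05424, had less on rice straw, 127 RPM on rice straw and 309.9 RPM on xylan, without a call, and the glucuronyl hydrolase Y699_08140 was 5.99-fold lower (95% interval 3.78 to 9.92).

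Sugar transporters bring the released sugars into the cell, and their list was drawn partly from genes that the study chose as varying among these libraries. Of 35 genes, which are only part of the sugar transporters that the paper counts, 13 were higher and 1 lower. These were 40.6% and 3.12% of the 32 with at least 10 RPM, beside 17.1% and 11.4% of described genes. The lactose permease Y699_09366 had 11673 reads (1545 RPM) on rice straw, against 56 reads (8.21 RPM) on xylan, and was 188-fold higher (95% interval 145 to 249). Y699_02054 had 3355 RPM on rice straw and 112 RPM on xylan (30.1-fold), the monosaccharide transporter Y699_07397 4891 RPM on rice straw and 338 RPM on xylan (14.5-fold) and the hexose transporter Y699_07916 5324 RPM on rice straw and 1089 RPM on xylan (4.89-fold). The last was abundant in both libraries, with 40210 reads on rice straw and 7426 on xylan. A second lactose permease, Y699_07512, was 24.4-fold higher, and the quinate transporter Y699_03701, for a plant acid, was 65.9-fold higher. Other transporters had their higher level on xylan. Y699_01871 was 5.96-fold lower (95% interval 5.22 to 6.82). Y699_04557 had 217 RPM on rice straw and 794 RPM on xylan, a ratio of 3.65-fold lower, and Y699_06922 had 455 RPM on rice straw and 1031 RPM on xylan, 2.27-fold lower, both short of the 4-fold limit. Per kilobase of coding length Y699_07916 led on both sources, with 3203 RPM on rice straw and 655 on xylan, but Y699_06922 came next on xylan (607) and Y699_07397 on rice straw (3059).

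The enzymes that carry xylose into metabolism did not share the direction of the xylanases. All 4 genes had a ratio below 1, as did 3627 of the 6743 genes with at least 10 RPM. Their median log2 ratio was -0.61, against -0.10 for all genes. D-xylose reductase Xyl1 (Y699_06810), the entry step, had 2800 reads (371 RPM) on rice straw, against 4255 reads (624 RPM) on xylan, or 1.68-fold (1.604 to 1.77) lower. The xylitol dehydrogenase Y699_08949, which makes xylulose, had 93.1 RPM on rice straw and 374 RPM on xylan, and was called 4.02-fold lower (95% interval 3.699 to 4.38); with TMM factors, DESeq2 size factors or totals without the most abundant genes it was 3.70-fold to 3.78-fold lower and not called. A second xylitol dehydrogenase, XdhB (Y699_09019), had 63.2 RPM on rice straw and 87.2 RPM on xylan, and D-xylulose kinase (Y699_00823), which feeds the pentose phosphate pathway, 235 RPM on rice straw and 273 RPM on xylan. The group took 0.0762% of all reads on rice straw (0.0742 to 0.0782) and 0.136% on xylan (0.133 to 0.139).

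A wider list of 22 genes with a xylose response in 3 other aspergilli split both ways, with 3 higher and 4 lower. These were 15% and 20% of the 20 with at least 10 RPM, beside 6.36% and 6.53% of all genes. The higher members were the β-glucosidase Y699_09150, XlnR and an aldose epimerase (Y699_01239, 5.86-fold). The lower members were the xylitol dehydrogenase, an aldehyde reductase (Y699_04174, 4.34-fold, and 3.99-fold when the most abundant 1% of genes was left out), a reductase described as 3-oxoacyl-(acyl-carrier-protein) reductase (Y699_08257, 4.96-fold) and the transporter Y699_01871.

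Of 4 regulators of carbon use 3 were higher on rice straw and none lower. XlnR (Y699_02312), the activator of xylanase and cellulase genes in aspergilli, had 1710 reads (226 RPM) on rice straw, against 143 reads (20.97 RPM) on xylan, and was 10.8-fold higher (95% interval 9.100 to 12.9). CreA (Y699_02675), the carbon catabolite repressor, had 35607 reads (4714 RPM) on rice straw, against 4590 reads (673 RPM) on xylan, and was 7.01-fold higher (95% interval 6.79 to 7.23). The activator and the repressor thus both had more reads on rice straw. AlcR (Y699_00602), which activates ethanol use in *A. nidulans*, was 10.2-fold higher, and FacB (Y699_05015), which activates acetate use in *A. nidulans*, had 542 RPM on rice straw and 159 RPM on xylan, 3.42-fold and not called. Among 71 regulators described by the words C6 or C2H2, 2 types of zinc finger, 14 were higher and 5 lower, 21.2% and 7.58% of the 66 with at least 10 RPM, beside 17.1% and 11.4% of described genes. The C6 factor Y699_03308 had 1378 RPM on rice straw and 76.4 RPM on xylan (18.04-fold). The factor Y699_04991, described as Rpn4, which in yeast regulates proteasome genes, held 50.6% of the reads of the 71 genes on rice straw and 40.7% on xylan, with a ratio of 3.24.

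Central carbon metabolism differed by pathway. Of 5 genes for gluconeogenesis, which makes hexose from smaller acids, and for the glyoxylate cycle, which uses acetyl units, 3 were higher and none lower. The 3 were 60% of the list. Of all genes with at least 10 RPM, 6.36% were higher and 6.53% lower, and of described genes 17.1% and 11.4%. Phosphoenolpyruvate carboxykinase AcuF (Y699_03930), the entry step of gluconeogenesis, had 124442 reads (16476 RPM) on rice straw, against 17226 reads (2526 RPM) on xylan, and was 6.52-fold higher (95% interval 6.42 to 6.63). On cellulose AcuF had 14896 RPM. Isocitrate lyase AcuD (Y699_09164) was 8.43-fold and malate synthase AcuE (Y699_07347) 6.45-fold higher, with 8651 RPM on rice straw and 1342 RPM on xylan for the second. Fructose-1,6-bisphosphatase (Y699_06494) had 2261 RPM on rice straw and 1047 RPM on xylan. The 5 genes took 2.81% of all reads on rice straw (2.796 to 2.82) and 0.502% on xylan (0.497 to 0.507). The list of 7 glycolysis genes had 0 called in either direction, and 6 of the 7 had a ratio below 1. With 6 genes at 10 RPM or more, 0 calls cannot be told apart from the shares of all genes. Phosphoglycerate kinase PgkA (Y699_08236) had 3980 reads on rice straw and 10821 on xylan, 3.01-fold lower, phosphofructokinase (Y699_03704) was 2.51-fold lower and the hexokinases Y699_08425 and Y699_04619 were 2.42-fold and 2.07-fold lower, all short of 4-fold. For the 6 with at least 10 RPM the median log2 ratio was -1.30 against 2.69 for gluconeogenesis and the glyoxylate cycle.

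**Figure D3:**
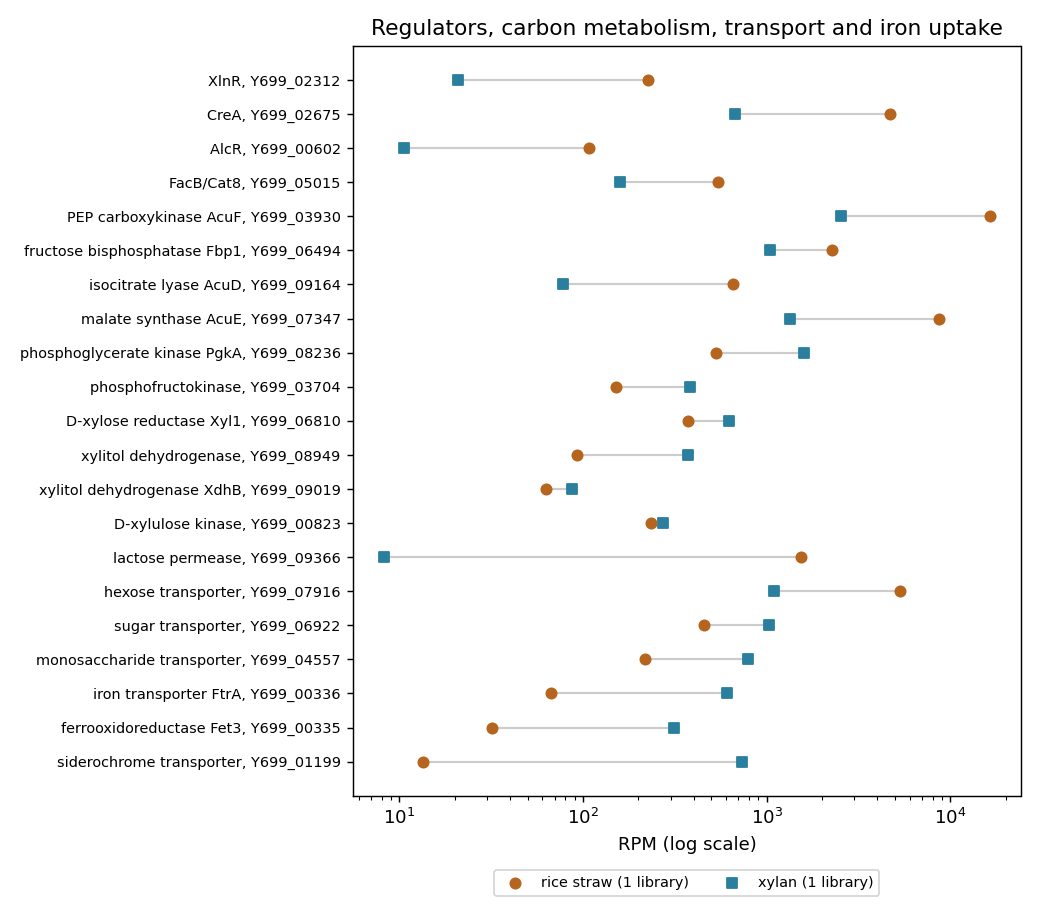
RPM (horizontal, log scale) of 21 genes of regulation, carbon metabolism, sugar transport and iron uptake on rice straw (brown circles) and on xylan (blue squares), 1 library each and no error bars. Regulators and gluconeogenic genes have the rice straw value on the right, as for AcuF (16476 RPM on rice straw and 2526 RPM on xylan), while glycolysis, xylose and iron uptake genes have it on the left, as for FtrA (66.99 RPM on rice straw and 609.8 RPM on xylan).

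Enzymes that break down aromatic compounds, the building blocks of lignin among them, were divided, 6 higher and 3 lower of 16 described genes. These were 42.9% and 21.4% of the 14 with at least 10 RPM, beside 17.1% and 11.4% of all described genes. This list, like the next 6, was taken by words in gene descriptions, which come mostly from genes the study chose as varying among these libraries, and its counts rest on that choice. The benzoate 4-monooxygenase Y699_04095 had 1764 reads (234 RPM) on rice straw, against 41 reads (6.01 RPM) on xylan, or 38.9-fold (28.5 to 54.3) higher. A homogentisate dioxygenase (Y699_04224), of tyrosine and phenylalanine breakdown, was 37.7-fold higher, and genes of the same pathway, Y699_03204 (4-hydroxyphenylpyruvate dioxygenase) and Y699_03206 (HmgA), were 13.4-fold and 11.6-fold higher. The salicylate hydroxylase Y699_03216 was 4.35-fold higher. Lower were 2 phenol monooxygenases, Y699_07352 (23.6-fold, with 14.8 RPM on rice straw and 350.1 RPM on xylan) and Y699_05001 (6.59-fold), and the laccase TilA (Y699_09062, 6.23-fold).

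Of 34 described peptidases 8 were higher and 3 lower, 26.7% and 10% of the 30 with at least 10 RPM, beside 17.1% and 11.4% of described genes. The metalloprotease Y699_09185 (deuterolysin type) had 3668 reads (486 RPM) on rice straw, against 71 reads (10.4 RPM) on xylan, or 46.7-fold (36.9 to 59.9) higher, and on cellulose it had 28.8 RPM. The dipeptidyl-peptidase Dpp4 (Y699_06318), a secreted enzyme, was 5.68-fold and aminopeptidase Y (Y699_08023) 9.04-fold higher. An ADAM family metalloprotease (Y699_04556) was 9.46-fold lower. Of 24 genes for nitrogen and peptide uptake 3 were higher and 1 lower, 14.3% and 4.76% of the 21 with at least 10 RPM, no more than the 17.1% and 11.4% of described genes. The oligopeptide transporter Y699_02344 (19.3-fold), the peptide transporter Y699_08050 (7.36-fold) and urea amidolyase (Y699_09076, 6.74-fold) were higher, and the proline permease Y699_05759 was 5.67-fold lower. The neutral amino acid permease Y699_04595 had 548 RPM on rice straw and 1604 RPM on xylan, and nitrite reductase NiiA (Y699_05083) was 2.91-fold lower, both without a call.

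Iron uptake genes were mostly lower on rice straw, 7 of 12, against 2 higher, beside 11.4% lower and 17.1% higher among described genes. The high-affinity permease FtrA (Y699_00336) had 506 reads (66.99 RPM) on rice straw, against 4159 reads (609.8 RPM) on xylan, and was 9.102-fold lower (95% interval 8.298 to 10.00). The ferroxidase Fet3 (Y699_00335), its partner in reductive uptake, had 242 reads (32.04 RPM) on rice straw, against 2141 reads (314 RPM) on xylan, or 9.797-fold (8.57 to 11.2) lower. The siderochrome transporter Y699_01199, which takes up iron-loaded siderophores, had 101 reads on rice straw and 4987 on xylan, 54.7-fold (44.9 to 67.3) lower, and had 1023 RPM on cellulose. The siderophore transporter Y699_07650 was 35.4-fold lower. The higher members were a ferric-chelate reductase (Y699_01469, 10.4-fold) and a metalloreductase (Y699_07482, 4.19-fold), enzymes that reduce the metal outside the cell. The 12 genes took 0.0694% of all reads on rice straw (0.0675 to 0.0713) and 0.253% on xylan (0.249 to 0.257).

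Of 60 genes described by ribosome biogenesis, all with at least 10 RPM, 7 were higher and none lower, 11.7% beside 17.1% of described genes. A ratio above 1 was found for 58 of the 60, most of them short of 4-fold, and the median log2 ratio was 1.33, against -0.10 for all genes. The higher ones included Kri1 (Y699_06759, 186 RPM on rice straw and 33.6 RPM on xylan, 5.55-fold) and Nop16 (Y699_04711, 5.16-fold), both of the large subunit pathway in yeast. Of 8 heat shock genes 1 was lower, Hsp30/Hsp42 (Y699_09421, 347 RPM on rice straw and 1679 RPM on xylan, 4.84-fold). That is 12.5% of the list, near the 11.4% lower among described genes. The Hsp70 chaperone HscA (Y699_05687) had 1234 RPM on rice straw and 338 RPM on xylan, 3.65-fold and not called. Of 9 conidiation genes, 6 were under 10 RPM in both libraries and 1, the hydrophobin RodA of the spore coat (Y699_00799), was lower, with 2 reads on rice straw and 99 on xylan (ratio 54.8-fold, 14.8 to 459). With only 3 genes at 10 RPM or more, this count says little beside the 11.4% lower among described genes.

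The secretory pathway, which exports the wall-degrading enzymes, differed little between the libraries. Of 227 genes, listed in the study from genome annotation, 2 were higher and 2 lower, under the 6.36% and 6.53% of all genes. The median log2 ratio was -0.23. Oxidoreductin (Y699_05568), which drives disulphide bond formation in the ER, was the larger of the lower ones, with 1234 reads (163 RPM) on rice straw, against 8428 reads (1236 RPM) on xylan, or 7.56-fold (7.12 to 8.04) lower. The exchange factor Sec2p (Y699_01902), of vesicle transport, was 6.75-fold lower. The higher genes were the mannosidase MsdS (Y699_04911, 6.73-fold) and the α-glucosidase AgdA (Y699_06391, 4.97-fold), both glycoside hydrolases. Among its groups the 18 genes listed under the proteasome had the lowest median log2 ratio of those with at least 4 genes above 10 RPM, -0.75, with 0 called. This list includes the factor Y699_04991, described as Rpn4, with a ratio of 3.24. Y699_04991 held 87.4% of the reads of the list on rice straw and 57.0% on xylan.

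**Figure D4:**
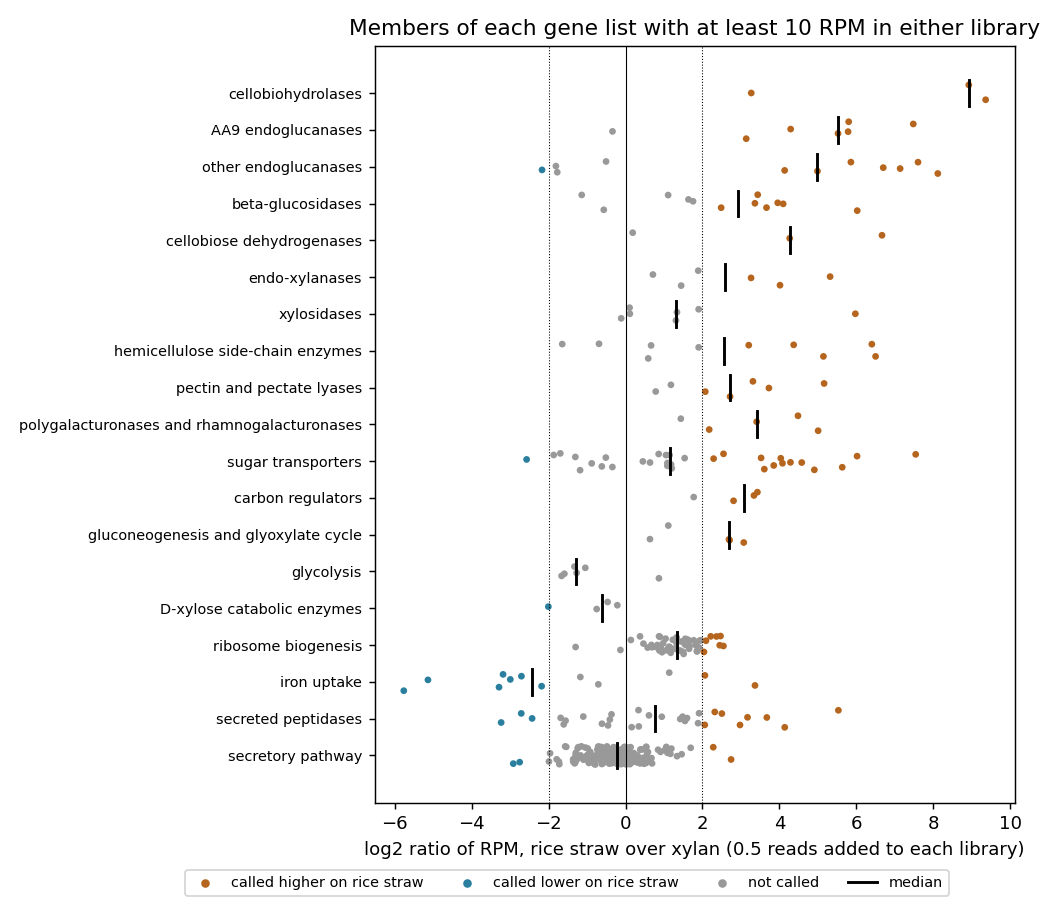
Log2 ratio of RPM, rice straw over xylan (horizontal, 0.5 reads added to each library), for members of 19 gene lists with at least 10 RPM in either library; each point is 1 gene, black bars are list medians and dotted lines mark 4-fold. Brown points (called higher) fill the lists of cellulose-cutting enzymes, with a median of 8.92 for the 3 cellobiohydrolases, and blue points (called lower) fill the iron uptake list, with a median of -2.44.

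Lower genes lay in longer blocks of neighbours than higher genes. Counting runs of at least 3 consecutive locus tags called in the same direction, the lower genes formed 22 runs with 97 genes, the longest of 16, and the higher genes 13 runs with 40 genes, the longest of 4. The longest run, Y699_04109 to Y699_04124, had 1217 reads on rice straw and 128004 on xylan. It overlaps a secondary metabolite cluster of 17 genes, 15 of them lower, that is annotated with GliP and GliF, enzymes of gliotoxin synthesis in *A. fumigatus*; gliotoxin is a sulphur-bridged toxin made from phenylalanine and serine. The peptide synthase GliP (Y699_04115) had 8 reads (1.06 RPM) on rice straw, against 2203 reads (323 RPM) on xylan, and was 305-fold lower (95% interval 154 to 707). The cytochrome P450 GliF (Y699_04122) had 25 reads on rice straw and 12149 on xylan, or 538-fold (364 to 832) lower. A further peptide synthase in the run, Y699_04110, had 1 read on rice straw and 4279 on xylan, a ratio of 4738-fold (850.0 to 187204) lower. Y699_04111, with no description, had 0 reads on rice straw and 258 on xylan, at least 95.2-fold lower against a floor of 3 reads. On cellulose GliP and GliF had 2.99 and 44.8 RPM.

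A second cluster with similar members was also low on rice straw, but high on cellulose. In this cluster of 18 genes 7 were lower and 0 higher. The SirD-like prenyltransferase Y699_01267 had 28 reads (3.71 RPM) on rice straw, against 40668 reads (5962 RPM) on xylan, and was 1608-fold lower (95% interval 1113 to 2421), and the GliP-like synthase Y699_01268 and the GliM-like methyltransferase Y699_01269 were 383-fold and 1212-fold lower. On cellulose these 3 genes had 3868, 2545 and 2512 RPM. The MFS transporter Y699_01270 remained well expressed on rice straw, with 11589 reads against 110118 on xylan, and so did the GliZ-like factor Y699_01271, with 817 on rice straw against 9487 on xylan; the transporter was 10.5-fold and the factor 12.9-fold lower. Genes from Y699_01272 on were not called.

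Over all 30 annotated metabolite clusters, 18 had more lower than higher genes, 5 had more higher than lower genes, 1 had equal numbers and 6 had none called. In some of them, on both sides, 1 called gene decided the direction. Of all genes with at least 10 RPM, 6.36% were higher and 6.53% lower. In the cluster from Y699_07340 to Y699_07367, 8 of 28 genes were lower and 3 higher; the lower ones centre on the peptide synthase Y699_07353 (16.1-fold, 11.8 RPM on rice straw and 190.0 RPM on xylan) and on Y699_07357, a fructosyl amino acid oxidase with 40 reads on rice straw and 5654 on xylan, 157-fold lower. The higher ones in the same stretch were citrate synthase (Y699_07342, 7.75-fold), an ATPase of mRNA export (Y699_07343, 4.01-fold) and malate synthase AcuE. In a cluster of 28 genes with 2 siderophore synthases, SidD (Y699_07652) had 4 reads on rice straw and 278 on xylan, 76.96-fold (29.7 to 284) lower, whereas SidE (Y699_07658) had 48.3 RPM on rice straw and 95.6 RPM on xylan and was not called. In a cluster of 14 genes around the siderochrome transporter Y699_01199, 7 were lower and none higher. Of 45 described nonribosomal peptide and polyketide synthases, a list made after the values were seen, 2 were higher, 12 lower and 20 under 10 RPM in both libraries. Among all described genes with at least 10 RPM, 17.1% were higher and 11.4% lower. The higher synthases were NRPS-like enzymes. Y699_05857 had 1750 reads (232 RPM) on rice straw, against 9 reads (1.32 RPM) on xylan, or 176-fold (92.3 to 385) higher, and Y699_04015 was 10.98-fold higher.

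**Figure D5:**
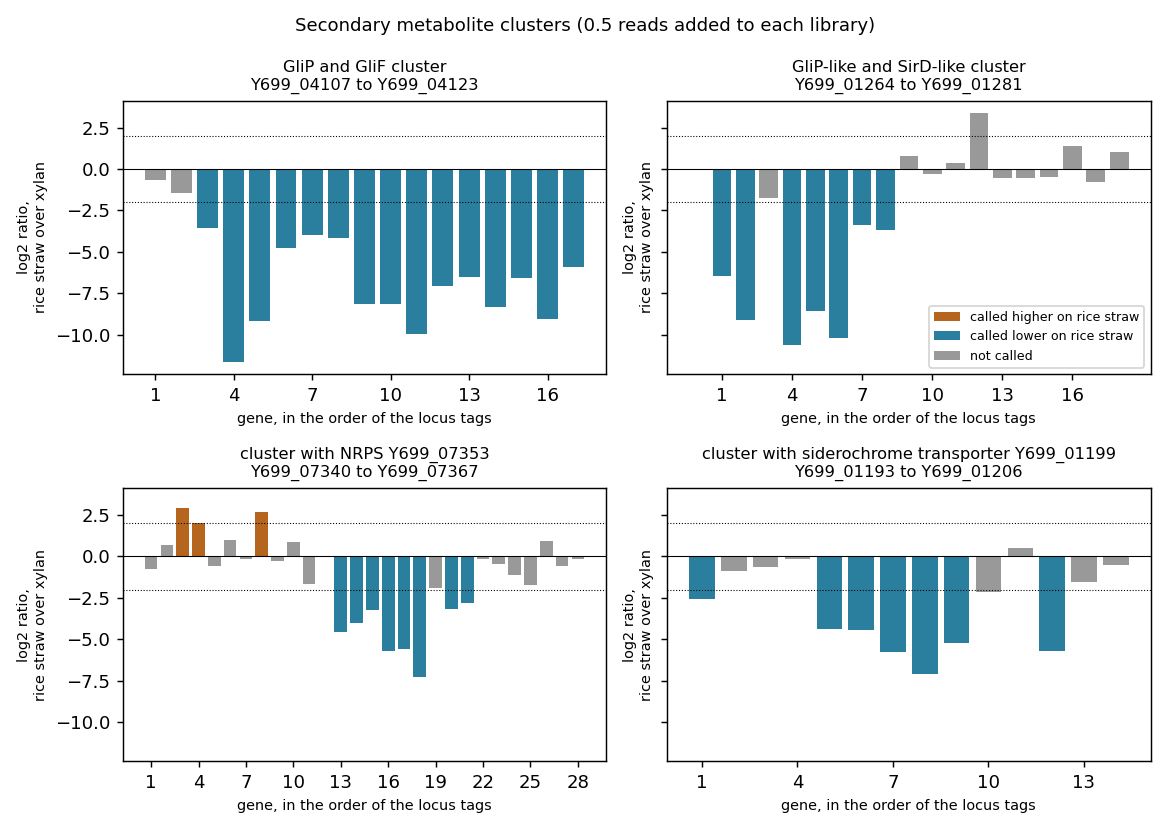
Log2 ratio of RPM, rice straw over xylan (vertical, 0.5 reads added to each library), for the genes of 4 secondary metabolite clusters in the order of their locus tags; blue bars were called lower, brown bars called higher, grey bars not called, and dotted lines mark 4-fold. In the GliP and GliF cluster 15 of 17 genes are lower, and in the GliP-like and SirD-like cluster 7 of 18.

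The runs of higher genes were short, but several joined a sugar transporter, an enzyme or a regulator. Y699_05309 to Y699_05311 held a monosaccharide transporter (52.7-fold), a β-galactosidase (5.86-fold) and a GH5 cellulase (114-fold, 633 reads on rice straw and 5 on xylan). Y699_08636 to Y699_08638 held the β-glucosidase and the GH12 endoglucanase given above, and Y699_05455 to Y699_05458, the longest, the acetyl xylan esterase. Y699_03699 to Y699_03701 held a C6 zinc finger protein (4.27-fold), an MFS transporter (29.7-fold) and the quinate transporter. Y699_03929 to Y699_03931 held a mitochondrial dicarboxylate carrier (23.7-fold, 354 RPM on rice straw and 14.95 RPM on xylan) next to AcuF. Y699_03237 to Y699_03239 held the alcohol dehydrogenase Y699_03238 beside a C6 transcription factor (6.48-fold). Of 35 stretches of neighbouring genes that the study defined as co-regulated on these libraries, 2 with at least 3 genes above 10 RPM had all of these higher, and 2 had all of them lower. These stretches were chosen by the study for their change against sucrose, so the counts are not independent of these libraries.

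Outside the enzyme lists, the alcohol dehydrogenase Y699_03238 had 17059 reads (2259 RPM) on rice straw, against 37 reads (5.42 RPM) on xylan, and was 416-fold higher (95% interval 302 to 592), with 17.2 RPM on cellulose. The cell wall galactomannoprotein Mp1 (Y699_03574), a surface antigen of the mould, had 127515 reads (16882 RPM) on rice straw, against 1396 reads (205 RPM) on xylan, and was 82.5-fold higher (95% interval 78.2 to 87.01); on cellulose it had 858 RPM. Genes described as GPI-anchored went in both directions. Y699_07419 had 27 reads on rice straw and 899 on xylan, or 36.9-fold (25.2 to 56.3) lower. Y699_04517 had 894 reads on rice straw and 2 on xylan, or 404-fold (111 to 3338) higher, and Y699_08800 had 2193 reads on rice straw and 18 on xylan, or 110.0-fold (69.4 to 186) higher. On the lower side were several genes with no description. The neighbours Y699_06340 and Y699_06341 had 89 and 55 reads on rice straw, against 20037 and 19326 on xylan, and were 249-fold and 389-fold lower. Y699_02062 was 412-fold lower with 4 reads on rice straw and 1487 on xylan, and the esterase Y699_05875 (CE10) was 228-fold lower. A description was held for 386 of the 429 higher genes and 257 of the 440 lower ones.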

How the data were processed

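Polyadenylated, cap-selected full-length cDNA of strain Z5 was sequenced for each carbon source, and of the 4 libraries those from rice straw and xylan were compared. The authors mapped clean reads to their own gene models; per the submitters' processing notes Bowtie 0.12.2 was used. The sources used here do not give strand or the handling of reads that match several genes, so values of close paralogs and overlapping genes are uncertain. The deposited table gives the raw read count of each gene and an RPM value, which the authors computed by scaling each library to 1000000 reads, without dividing by gene length. The deposited log2 ratios, p-values and q-values of the authors' own comparisons were not used. Gene lengths are multiples of 3 and were taken as coding lengths. Descriptions were held for 2591 of 9540 genes.

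Counts were scaled by library totals (7553138 reads on rice straw, 6820702 on xylan). With 1 library per carbon source no test of the carbon sources was run; a gene was called at 4-fold and at least 10 RPM in either library, with exact conditional binomial 95% intervals for ratios and a floor of 3 counts where a library had 0. The calls and intervals were checked on simulated counts with planted changes larger than the 4-fold limit. That check covers the arithmetic and does not measure variation between cultures. Named genes were those with the ratio interval farthest from 1 (15 in each direction), in each list up to 4 called members and up to 3 members of highest RPM, every member of lists of 8 or fewer, and genes named in the study. Other genes were named after their values were seen, namely Y699_01469, Y699_01871, Y699_03239, Y699_03699, Y699_03929, Y699_04111, Y699_04224, Y699_04625, Y699_05001, Y699_05083, Y699_06922, Y699_07342, Y699_07343, Y699_07353, Y699_07419, Y699_07482, Y699_07658 and Y699_08257, with the ends of the runs and clusters. All members and lists were chosen with earlier results of these data known. Lists of cellulases, hemicellulases, pectinases, carbohydrate-active enzymes, secretory genes and metabolite clusters came from the study's annotation of the genome; lists by description words cover only described genes, which the study mostly chose on these libraries.

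Alternatives were edgeR TMM factors, DESeq2 size factors, totals without the most abundant 1% of genes, other folds and RPM minimums, a read test and 0.5 reads added. Versions were DESeq2 1.42.0, edgeR 4.0.16, R 4.3.3, and Python 3.11.15 with scipy 1.17.1, pandas 2.3.3, numpy 2.4.6 and matplotlib 3.10.9.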

Additional observations from a re-analysis of the deposited data

How the results depend on the processing

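The counts of 429 higher and 440 lower genes depended on the thresholds more than on the scaling. They were 733 and 751 with no RPM minimum, 252 and 285 with 50 RPM, 1163 and 1269 at 2-fold, and 186 and 181 at 8-fold. With edgeR's exact test at an assumed coefficient of variation of 0.4 they were 222 and 224, and with an exact test on the reads, which compares these 2 libraries and not the carbon sources, 429 and 440. Under TMM factors, DESeq2 size factors and totals that leave out the top 1% of genes by reads, the higher genes were 469, 479 and 482 and the lower genes 409, 402 and 397. The median log2 ratio of -0.10 became -0.00795 with TMM factors, and changed sign with DESeq2 size factors (0.013) and without the most abundant 1% (0.022). Of 881 named genes 287 were called, and under these 3 scalings 9 lost the call, 9 gained it and 0 changed direction. No paired analysis was possible because each carbon source has 1 library. Since culture and carbon source cannot be told apart, no value here carries a biological error, and genes under 10 RPM in both libraries were given no call.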

Other observations

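The gene groups that follow were drawn up after the values were seen, from words in the gene descriptions, and are given as descriptions; of all described genes with at least 10 RPM, 17.1% were higher and 11.4% lower. Of 15 alcohol dehydrogenases 6 were higher and 1 lower on rice straw. Y699_08803 had 244 RPM on rice straw and 5.28 RPM on xylan, 46.3-fold higher, and Y699_08459 135 RPM on rice straw and 4.398 RPM on xylan, 30.6-fold higher. Y699_00475 had 655 reads (86.7 RPM) on rice straw, against 6868 reads (1007 RPM) on xylan, or 11.6-fold (10.7 to 12.6) lower. Both pyruvate decarboxylases, which open the route from pyruvate to ethanol, were lower, PdcA (Y699_01443) with 2220 reads (294 RPM) on rice straw, against 33970 reads (4980.4 RPM) on xylan (16.9-fold) and Y699_05333 with 81 reads on rice straw and 813 on xylan (11.1-fold). A gene described as a thiamine pyrophosphate enzyme, Y699_02510, had 19039 reads (2521 RPM) on rice straw, against 748 reads (109.7 RPM) on xylan, and was 22.98-fold higher (95% interval 21.4 to 24.8). In the tricarboxylic acid cycle, the mitochondrial route that burns acetyl units, 2 of 7 genes were higher and none lower, with aconitase (Y699_04417) at 6554 RPM on rice straw and 1279 RPM on xylan, 5.13-fold higher.

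Both flavohemoproteins, enzymes that detoxify nitric oxide, were higher, Y699_03555 with 84445 reads (11180.1 RPM) on rice straw, against 7643 reads (1121 RPM) on xylan (9.98-fold) and Y699_05478 with 355 reads on rice straw and 2 on xylan (ratio 160.3, 44.05 to 1329). Of 15 sterol enzymes 6 were lower and none higher. The C-4 methyl sterol oxidase Y699_05734 had 7200 reads (953 RPM) on rice straw, against 39772 reads (5831 RPM) on xylan, 6.12-fold lower, and Cyp51A (Y699_06061), the target of azole drugs, had 182 RPM on rice straw and 909.9 RPM on xylan, 4.99-fold lower. Coproporphyrinogen III oxidase (Y699_01108), of haem synthesis, had 1053 reads (139 RPM) on rice straw, against 20441 reads (2997 RPM) on xylan, and was 21.5-fold lower (95% interval 20.2 to 22.9).

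The genes of this paragraph were picked one by one after their values were seen and stand for no group. The Ctr copper transporter Y699_03156, which imports copper, had 187 reads (24.8 RPM) on rice straw, against 11801 reads (1730.2 RPM) on xylan, and was 69.9-fold lower (95% interval 60.5 to 81.2). The copper P-type ATPase Y699_01284, described by copper resistance, was 20.8-fold higher (95% interval 16.8 to 25.9), with 277 RPM on rice straw and 13.3 RPM on xylan. The Cu,Zn superoxide dismutase SOD1 (Y699_00764) was 5.03-fold and the catalase-peroxidase Cat2 (Y699_05807), which breaks down hydrogen peroxide, 5.67-fold higher. The galactomannoprotein Y699_03713, of the same description class as Mp1, had 536 reads on rice straw and 7 on xylan, or 69.1-fold (33.3 to 173) higher, and the class V chitinase ChiB1 (Y699_05833) had 156 reads on rice straw and 7 on xylan, or 20.1-fold (9.54 to 50.9) higher. ChiB1 had 20.7 RPM on rice straw and 974 RPM on cellulose. Chitin synthase C (Y699_00049) was 7.597-fold lower, with 48.3 RPM on rice straw and 367 RPM on xylan, and the chitin-binding protein Y699_04924 was 22.8-fold higher, with 462 RPM on rice straw and 20.2 RPM on xylan.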
